A study of Mus musculus with 4 samples.

Results

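The 59 genes described here encode the pore subunits of the voltage-gated ion channels. They were taken from the 55602 genes of the deposited table by symbol: the potassium channel families Kcna to Kcnd, Kcnf to Kcnh, Kcnq, Kcns and Kcnv, the sodium channel alpha subunits *Scn1a* to *Scn11a*, and the calcium channel alpha-1 subunits *Cacna1a* to *Cacna1s*. *Kcnq1* was left out. By class, 10 encode sodium, 10 calcium and 39 potassium channel subunits. Of the 39, 29 are pore-forming and 10 are electrically silent, that is, they form no channel alone and modify a channel made by other subunits.

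A voltage-gated channel opens when the membrane depolarizes. Sodium channels carry the upstroke of the action potential, potassium channels repolarize the membrane and set how often it fires, and calcium channels couple the electrical signal to transmitter release, contraction and transcription. Neural progenitors are known to carry few sodium channels, and the fast channels appear as cells leave the cycle and become neurons.

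RNA was measured by stranded total RNA-seq in neural precursor cells harvested at day 12 of an in vitro corticogenesis protocol, in 2 wild-type and 2 *Zfp57*-/- libraries that the labels call biological duplicates. JB1 is a hybrid mouse embryonic stem cell line with a JF1 mother and a C57BL/6 (B6) father. The *Zfp57*-/- cells are 1 line derived from it, which lacks a KRAB zinc finger protein that keeps DNA methylation at imprinting control regions, so any difference between genotypes also holds whatever else sets these lines apart. Both genotypes were cultured in DDM medium with 1 µM cyclopamine, an inhibitor of sonic hedgehog signalling, from day 2 to day 10. With a pair of replicates per genotype, p-values measure the spread between these cultures.

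The libraries held 7663520 and 10225378 assigned fragments in wild-type against 9545119 and 10337082 in *Zfp57*-/- cells. *Zfp57* had 392 and 249 counts in wild-type cells against 158 and 144 in *Zfp57*-/- replicates (log2 fold change -1.19, SE 0.32, edgeR adjusted p = 0.0225). These counts cover the whole gene and so include exons outside the deletion. Of 12 neuron markers, 11 were lower in *Zfp57*-/- cells, and their normalized counts summed to 17696 and 23516 in wild-type against 2839 and 2362 in *Zfp57*-/- replicates. Of 8 neural progenitor markers, 6 were lower, while *Sox2* and *Vim* did not pass the threshold. Of 8 pluripotency markers, 7 were higher, with sums of 617.8 and 1331 against 12289 and 11144 normalized counts. The *Zfp57*-/- libraries labelled as neural precursor cells therefore held more pluripotency transcripts than the wild-type libraries of day 12. *Nanog* had 0 counts in wild-type replicates against 903 and 938 with *Zfp57* inactivated. The paper reports that *Nanog* and *Pou5f1* fell during differentiation in both genotypes, and no undifferentiated cells are compared here. It also reports that the mutant cells differentiated only in part and did not fully switch on neural markers. In bulk RNA, fewer cells of a type and less RNA per cell cannot be told apart, and the part of these markers in the results on channels was not tested.

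Together, the pore subunits held 894.5 and 610.7 CPM (counts scaled to library size) in wild-type cells against 197.9 and 177.4 in *Zfp57*-/- cells. Levels are given as FPKM, that is, counts scaled to library size by TMM and divided by exon length, so that genes of different length can be set side by side. The summed level of all 59 was 86.3 and 61.9 FPKM in wild-type cells against 25.1 and 24.0 FPKM in *Zfp57*-/- replicates. The wild-type mean was 3.02 times that of *Zfp57*-/- cells, and the wild-type replicates differed more from each other than the *Zfp57*-/- replicates did. Of the 59, 51 had more than 8 counts over the 4 libraries and were tested. At an edgeR adjusted p under 0.05, 27 were lower and 3 higher in *Zfp57*-/- cells and 21 did not pass. Of all 19995 genes tested, 14.6% were lower, 13% were higher and 27.6% passed in either direction. When Actb set the scale, 25 members were lower and 1 was higher, against 15% and 2.43% of all genes. The median log2 fold change was -1.67 over the members tested and -0.01 over all genes tested.

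The libraries of the genotypes did not overlap for 36 members that were higher in wild-type and 11 that were higher in *Zfp57*-/- cells. Over all genes tested, such a separation was seen for 32.6% and 33.7%. All 27 members called lower were among the 36. Of those 27, 21 had the higher FPKM in wild-type replicate 1 and 6 in wild-type replicate 2. The share of all genes with the higher level in replicate 1 was not counted. The 8 members that were not tested had at most 8 counts in all. *Kcna10* and *Scn10a* had 0 counts in every library, which allows up to 3 counts per library. *Kcna7*, a muscle potassium channel, had 7 counts, *Kcng4* 5, *Scn11a*, a sodium channel of sensory neurons, 8, and *Cacna1f*, *Kcns2* and *Kcnv1* 1 each.

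**Figure D1:**
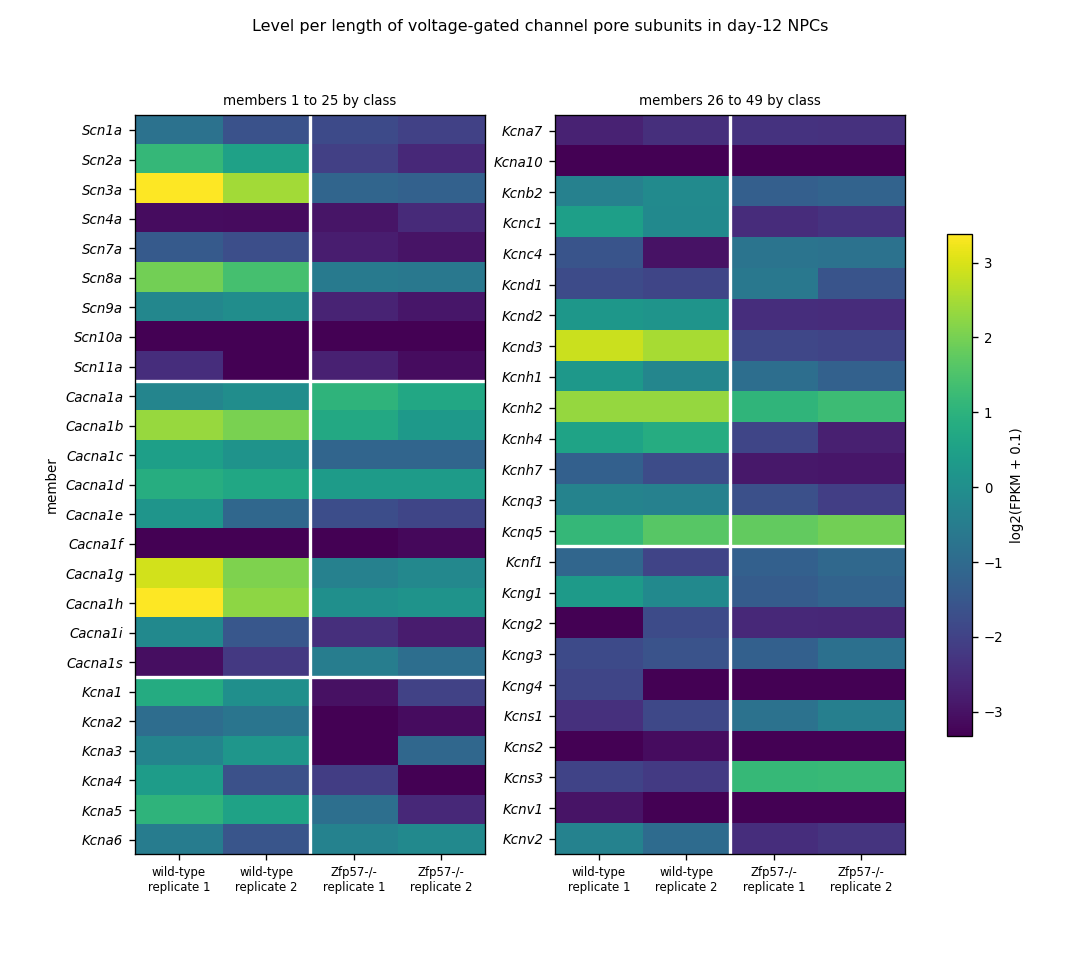
Colour gives log2(FPKM + 0.1) of 49 of the 59 members (rows, by class, white lines between classes and genotypes) in each of the 4 libraries (columns). By the mean of the replicates, *Scn3a*, *Cacna1h* and *Kcnd3* were the highest in wild-type cells, and *Kcnq5*, *Kcns3* and *Kcnh2* in *Zfp57*-/- cells.

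Among the sodium channels, the summed level was 18.3 and 11 FPKM in wild-type cells against 1.55 and 1.44 FPKM in *Zfp57*-/- cells, a ratio of 9.79. Of the 8 members tested, 5 were lower and 3 did not pass. *Scn3a*, the sodium channel of the embryonic and neonatal brain, made up 56.7% and 49.2% of the wild-type sum. It had 1042 and 705 counts in wild-type cells against 41 and 39 in *Zfp57*-/- replicates. In FPKM this was 10.4 and 5.40 against 0.353 and 0.320. The groups lay far apart although wild-type replicate 1 was at 1.92 times replicate 2, and the log2 fold change was -4.54 (SE 0.35, adjusted p = 1.7e-05). By the mean of the replicates, *Scn3a* was the highest of all members in wild-type cells and at rank 22 in *Zfp57*-/- cells, although in wild-type replicate 2 *Kcnd3* stood above it at 5.63 FPKM.

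*Scn2a*, which carries the action potential in young axons, had 219 and 177 counts in wild-type cells against 17 and 9 in *Zfp57*-/- replicates (log2 fold change -3.99, SE 0.42, adjusted p = 0.00012). *Scn8a*, which takes over at mature axon initial segments and nodes, had 482 and 421 against 86 and 83 counts, and a smaller change (-2.49, SE 0.26, adjusted p = 0.000116). In both genes the groups did not overlap. *Scn8a* was the most abundant sodium channel left in *Zfp57*-/- cells, with 37.8% and 37.5% of the summed level against 20.7% and 23.2% in wild-type. *Scn9a*, best known from pain-sensing neurons, had 78 and 117 counts in wild-type cells against 7 and 4 in *Zfp57*-/- replicates (-4.14, SE 0.49, adjusted p = 0.000249).

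*Scn7a*, a sodium-sensing relative that is hardly gated by voltage, fell from 16 and 16 counts to 3 and 2 (-2.68, SE 0.81, adjusted p = 0.0355). *Scn1a*, the channel of inhibitory interneurons, had 43 and 26 against 19 and 16 counts and did not pass (-1.07, SE 0.57, adjusted p = 0.194). The skeletal muscle *Scn4a* had 2 counts over the wild-type and 7 over the *Zfp57*-/- replicates, a wild-type to *Zfp57*-/- ratio of 0.294 with an exact counting interval of 0.0298 to 1.55. *Scn3a*, *Scn2a*, *Scn1a*, *Scn9a* and *Scn7a* lie in this order on chromosome 2 between 65457118 and 66784914 of GRCm38. The gap between *Scn2a* and *Scn1a* is 503 kb, and the other gaps are 38.5 to 53.1 kb. In this cluster *Scn1a* was the member that did not pass, but its change was not tested against that of its neighbours.

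**Figure D2:**
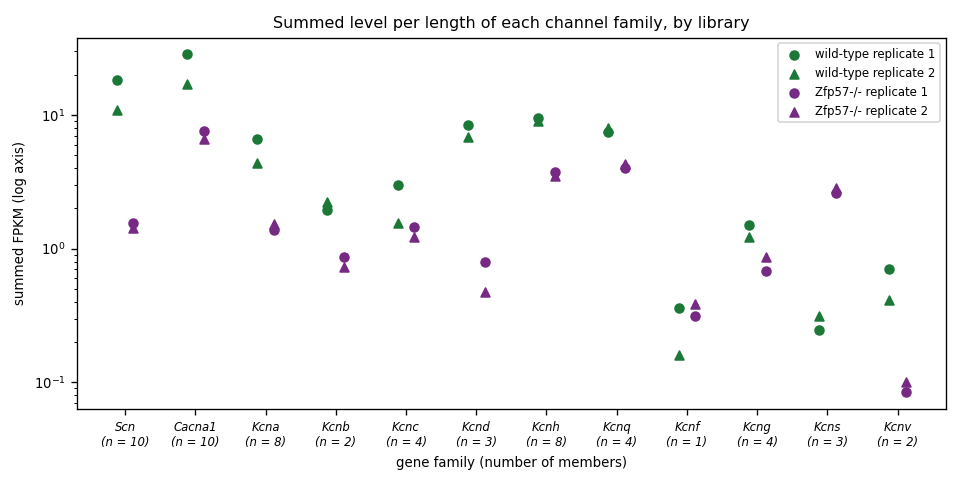
Summed FPKM on a log axis of each gene family by library, with green for wild-type and purple for *Zfp57*-/- cells, circles for replicate 1 and triangles for replicate 2. The wild-type to *Zfp57*-/- ratio was 9.79 for the Scn and 12.0 for the Kcnd sums, the Kcnf values overlapped, and the Kcns sum was higher in *Zfp57*-/- cells.

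The calcium channels summed to 28.3 and 16.9 FPKM in wild-type cells against 7.55 and 6.63 FPKM in *Zfp57*-/- cells, a ratio of 3.19. Of 9 tested, 6 were lower and 2 were higher. The T-type channels, which open at small depolarizations, led this class in wild-type cells. *Cacna1h* had 809 and 475 counts in wild-type cells against 83 and 95 in *Zfp57*-/- replicates (log2 fold change -2.96, SE 0.36, adjusted p = 0.000271). *Cacna1g* had 616 and 443 against 64 and 77 counts (-3.00, SE 0.31, adjusted p = 0.000106). *Cacna1i*, the third of the T-type genes, was less abundant, with 64 and 26 against 8 and 4 counts (-3.00, SE 0.74, adjusted p = 0.0144). All 3 T-type genes were lower, and in each the wild-type replicates differed by more than the *Zfp57*-/- replicates in FPKM.

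The high-voltage-activated channels went different ways. *Cacna1b*, the N-type channel of developing presynaptic terminals, had 398 and 415 counts in wild-type cells against 143 and 110 in *Zfp57*-/- replicates (-1.74, SE 0.25, adjusted p = 0.0007). *Cacna1a*, the P/Q-type channel that serves release at many mature synapses, had 67 and 104 counts in wild-type cells against 210 and 172 in *Zfp57*-/- replicates (1.13, SE 0.27, adjusted p = 0.0126). In wild-type cells *Cacna1b* stood at 4.96 and 3.98 FPKM and *Cacna1a* at 0.727 and 0.870, while in *Zfp57*-/- cells they stood at 1.54 and 1.13 and at 1.97 and 1.54. *Cacna1a* was the most abundant calcium channel of the *Zfp57*-/- cells, with 26.1% and 23.2% of the summed level. The call of *Cacna1a* was lost without either *Zfp57*-/- replicate (adjusted p = 0.238 without replicate 1 and 0.0505 without replicate 2) and with Actb as the scale (0.51, adjusted p = 0.609).

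Among the L-type channels, *Cacna1c* fell from 219 and 221 to 71 and 73 counts (-1.67, SE 0.26, adjusted p = 0.00139). *Cacna1d*, the L-type channel that opens at lower voltages, had 174 and 197 against 138 and 146 counts and did not pass (-0.44, SE 0.24, adjusted p = 0.201). *Cacna1s*, the skeletal muscle L-type channel, had 1 and 8 counts in wild-type cells against 38 and 28 in *Zfp57*-/- replicates (2.85, SE 0.77, adjusted p = 0.0211). The groups did not overlap, but the call rested on few counts and was lost without *Zfp57*-/- replicate 1 (adjusted p = 0.121) and with Actb as the scale (adjusted p = 0.129). Of 5 skeletal muscle markers tested, 3 were higher in *Zfp57*-/- cells, with summed normalized counts of 200.5 and 151.9 in wild-type against 609.2 and 544.6 over the 6 on the list. The part of these markers in the change of *Cacna1s* was not tested. Allelic shares around this gene, on chromosome 1, are given further on. The R-type *Cacna1e* fell from 210 and 98 to 47 and 40 counts (-1.94, SE 0.46, adjusted p = 0.012).

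*Cacna1b* and *Kcnb2* passed the edgeR tests between genotypes of both level and allelic share (described further on), though DESeq2 kept neither allelic call. Of these, the promoter of *Cacna1b* is shown here. The window runs from 250 bases before to 50 after the RefSeq start, at chr2:24763103-24763402 of GRCm38.p6 on the minus strand, 5′ to 3′ along the gene. Capitals mark CAGCTG, an E-box, and GGGCGG, a GC box read on either strand.
Cacna1b: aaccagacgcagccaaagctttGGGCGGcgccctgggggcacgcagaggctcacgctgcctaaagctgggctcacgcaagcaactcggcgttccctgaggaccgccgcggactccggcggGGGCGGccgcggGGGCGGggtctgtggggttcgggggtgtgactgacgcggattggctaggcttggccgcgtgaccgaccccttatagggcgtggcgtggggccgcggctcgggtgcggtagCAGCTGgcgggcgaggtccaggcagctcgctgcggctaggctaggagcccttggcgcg

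The pore-forming potassium channels summed to 36.9 and 31.9 FPKM in wild-type cells against 12.3 and 11.7 FPKM in *Zfp57*-/- cells. Of the 27 tested, 14 were lower, 0 were higher by edgeR or DESeq2 (0 also at an unadjusted p under 0.05) and 13 did not pass. The A-type Kcnd family, whose fast-inactivating current delays firing from the dendrite, had the largest ratio between genotypes, with sums of 8.44 and 6.79 against 0.799 and 0.471 FPKM, a ratio of 12.0. *Kcnd3* had 555 and 565 counts in wild-type cells against 15 and 15 in *Zfp57*-/- replicates. It had the smallest adjusted p of all members (log2 fold change -5.27, SE 0.28, adjusted p = 3.62e-06), and made up 85.0% and 82.9% of the family's level in wild-type against 21% and 33.9% in *Zfp57*-/- cells. *Kcnd2* fell from 45 and 54 to 4 and 4 counts (-3.64, SE 0.59, adjusted p = 0.00164). *Kcnd1*, which lies on the X chromosome, had 8 and 9 against 27 and 12 counts and did not pass (1.15, SE 0.70, adjusted p = 0.256).

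The promoter of *Kcnd3* is shown as that of the member with the strongest evidence of a fall. It lies at chr3:105451640-105451939 of GRCm38.p6 on the plus strand, and capitals mark CAGCTG. This window did not hold GGGCGG.
Kcnd3: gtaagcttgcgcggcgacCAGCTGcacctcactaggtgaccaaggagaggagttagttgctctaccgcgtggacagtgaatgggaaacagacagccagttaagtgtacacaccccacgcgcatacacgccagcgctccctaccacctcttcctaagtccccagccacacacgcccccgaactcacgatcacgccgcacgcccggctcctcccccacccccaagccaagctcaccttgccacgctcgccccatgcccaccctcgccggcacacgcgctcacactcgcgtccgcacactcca

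The Kcnq genes encode the M-current, a slow potassium current that holds back repetitive firing. *Kcnq3* had 83 and 104 counts in wild-type cells against 29 and 20 in *Zfp57*-/- replicates (-1.97, SE 0.39, adjusted p = 0.00509). *Kcnq5* was not called lower. It had 131 and 244 counts in wild-type cells against 239 and 283 in *Zfp57*-/- replicates (0.46, SE 0.25, adjusted p = 0.196), and its FPKM of 2.11 and 3.03 against 3.34 and 3.76 made it the most abundant of all members in *Zfp57*-/- cells, at rank 9 in wild-type. Within the family its share was 28.2% and 38.2% in wild-type against 82.6% and 87.5% in *Zfp57*-/- cells. When scaled to Actb, *Kcnq5* turned to a log2 fold change of -0.13 (edgeR adjusted p = 0.897). Without wild-type replicate 2 it was 0.76. The sign of *Kcnq5* changed with the scale, but it passed neither in the main fit nor with Actb, so no direction was established.

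In the Kcnh family, *Kcnh2*, the ERG channel that is known from the heart and is also found in neurons, was the most abundant member in both genotypes, with 193 and 247 counts in wild-type cells against 90 and 110 in *Zfp57*-/- replicates (-1.18, SE 0.24, adjusted p = 0.006). *Kcnh2* kept 52.2% and 54.0% of the family's level in wild-type and had 53.4% and 66.2% in *Zfp57*-/- cells. Its call was lost without either *Zfp57*-/- replicate (adjusted p = 0.121 and 0.052). *Kcnh4*, a forebrain ELK channel, fell from 44 and 70 to 6 and 2 counts (-3.81, SE 0.64, adjusted p = 0.00197), and the ERG-type *Kcnh7* fell from 39 and 31 to 5 and 5 (-2.86, SE 0.64, adjusted p = 0.00911). The other 5 members did not pass. The nearest to the threshold was *Kcnh1*, an EAG channel, with 65 and 57 against 30 and 23 counts (adjusted p = 0.057).

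*Kcnb2* belongs to the delayed rectifiers that carry much of the somatic repolarizing current of cortical neurons. It had 83 and 131 counts in wild-type cells against 44 and 50 in *Zfp57*-/- replicates (-1.21, SE 0.33, adjusted p = 0.0216). In the Kcnc family of fast-spiking channels, *Kcnc1* fell from 98 and 80 to 7 and 9 counts (-3.54, SE 0.49, adjusted p = 0.000602). Its relative *Kcnc4* had 7 and 1 against 17 and 17 counts and did not pass (1.94, SE 0.90, adjusted p = 0.141).

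The Kcna family of Shaker-type channels, which sit in axons and set the threshold of firing, gave low counts. *Kcna1* had 63 and 46 counts in wild-type cells against 1 and 7 in *Zfp57*-/- replicates (-3.82, SE 0.74, adjusted p = 0.00441). *Kcna2* had 41 and 64 against 0 and 2 counts (adjusted p = 0.00108), a wild-type to *Zfp57*-/- ratio of 54.1 with an exact counting interval of 14.6 to 452.2. *Kcna5*, a channel of heart and vascular muscle, had 45 and 41 against 12 and 2 counts (-2.65, SE 0.74, adjusted p = 0.024). *Kcna3*, a lymphocyte and axonal channel, *Kcna4* and *Kcna6* did not pass. *Kcna4* had 47 and 11 against 6 and 0 counts, so that its wild-type replicates differed by more FPKM than its genotype means (-3.36, SE 1.15, adjusted p = 0.0542). *Kcna6* had 29 and 15 against 38 and 47 counts (0.84, SE 0.55, adjusted p = 0.285), and was the most abundant Kcna gene in *Zfp57*-/- cells, with 49.4% and 53.3% of the family's level. *Kcna5*, *Kcna1* and *Kcna6* lie within chr6:126532551-126740674, and the first 2 were lower while *Kcna6* did not pass.

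**Figure D3:**
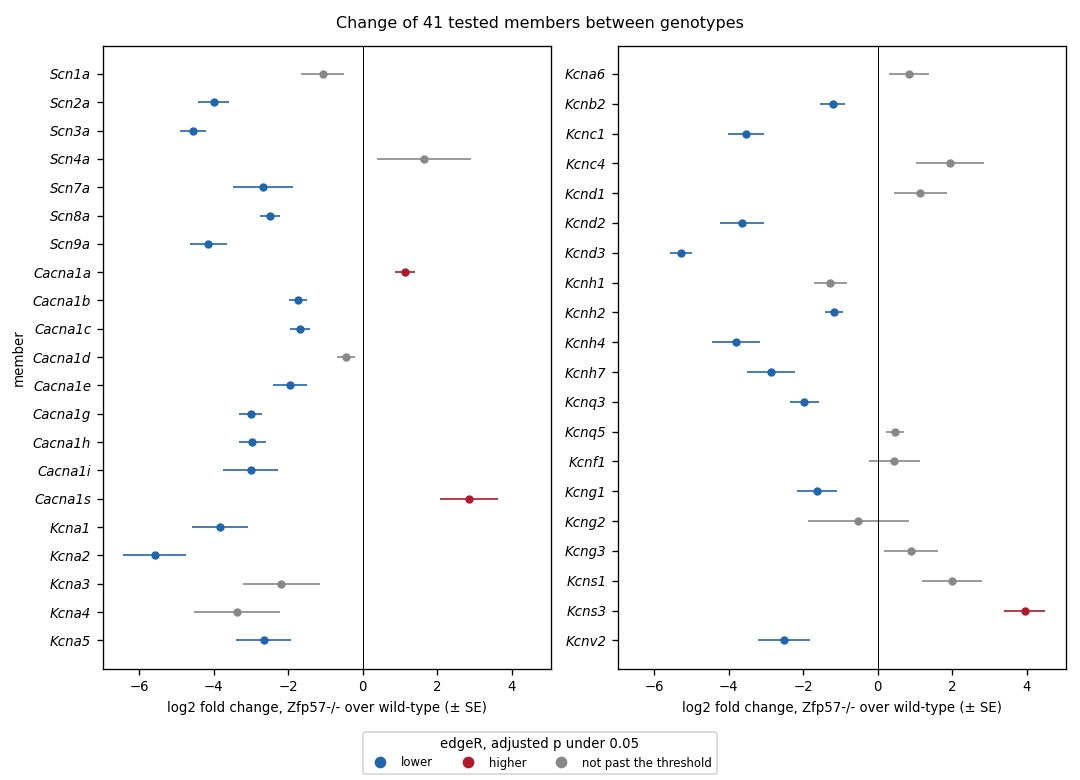
Log2 fold change of *Zfp57*-/- over wild-type cells (points) with its standard error (bars) from edgeR for 41 of the 51 members tested, blue for lower, red for higher and grey for members that did not pass an adjusted p of 0.05. Blue points lie in all families but Kcnf and Kcns, and the red points are *Cacna1a*, *Cacna1s* and *Kcns3*. The fitted points of *Kcna2* and *Scn4a* rest on 2 counts in one genotype.

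The electrically silent potassium subunits were the class with the higher sum in *Zfp57*-/- cells, at 3.69 and 4.19 FPKM against 2.82 and 2.11 in wild-type. *Kcns3* alone made up 58.0% and 52.5% of this sum in *Zfp57*-/- cells against 5.56% and 5.72% in wild-type. Of 7 tested, 2 were lower, 1 was higher and 4 did not pass. *Kcns3*, which joins Kcnb channels and alters their gating, had 4 and 4 counts in wild-type cells against 63 and 68 in *Zfp57*-/- replicates (log2 fold change 3.94, SE 0.55, adjusted p = 0.000679). Its level was 0.157 and 0.121 FPKM in wild-type cells against 2.14 and 2.20 FPKM in *Zfp57*-/- cells, which by the replicate means took it from rank 45 to rank 2 of the 59. Its relative *Kcns1* had 2 and 5 against 12 and 17 counts and did not pass (1.99, SE 0.80, adjusted p = 0.092). *Kcng1*, another subunit that joins Kcnb channels, fell from 42 and 38 to 12 and 15 counts (-1.63, SE 0.53, adjusted p = 0.0456), and *Kcnv2*, known from photoreceptors, fell from 28 and 22 to 4 and 5 (-2.52, SE 0.70, adjusted p = 0.024). *Kcnf1*, with 14 and 8 against 14 and 18 counts, *Kcng2* and *Kcng3* did not pass.

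The promoter of *Kcns3* is shown as that of the member with the strongest evidence of a rise. It is the more downstream of the RefSeq windows of this gene, at chr12:11150324-11150623 of GRCm38.p6 on the minus strand. Capitals mark GGGCGG or its reverse complement CCGCCC.
Kcns3: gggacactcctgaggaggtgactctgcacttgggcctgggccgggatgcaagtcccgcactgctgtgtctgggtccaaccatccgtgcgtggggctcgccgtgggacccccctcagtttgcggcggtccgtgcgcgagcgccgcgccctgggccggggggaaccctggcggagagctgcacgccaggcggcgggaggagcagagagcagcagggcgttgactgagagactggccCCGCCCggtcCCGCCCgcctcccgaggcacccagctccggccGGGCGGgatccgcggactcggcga

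RefSeq promoter windows of 300 bases matched 40 of the 59 members, with 50 windows in all, counted on both strands and beside all 32851 windows of the same length. GGGCGG was found in 48% of the members' windows and in 35.7% of all windows. CAGCTG was found in 30% and 16.3%, CAGATG in 18% and 17.2%, and TATAAA in 4% and 13.6%. The members' windows had a median GC content of 62% against 52.7%, and GGGCGG is itself made of G and C. RE1, the site of the neuronal repressor REST, was searched by name with at least 15 of its 18 fixed letters and was found in 0 of the 50 windows and in 0.0944% of all windows. A match of letters is a description, and windows of this length leave out introns and distant sites.

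The partners of the pore were counted from lists of known genes. Of 34 auxiliary subunits, 33 were found in the table and 27 were tested, of which 12 were lower and 1 was higher, with a median log2 fold change of -1.28. Of the calcium channel alpha-2-delta subunits, which bring the channel to the membrane, 3 of 3 tested were lower, led by *Cacna2d1* with 1291 and 949 against 342 and 281 counts (-1.93, SE 0.28, adjusted p = 0.00086). Of the calcium channel beta subunits, 3 of 4 were lower, and *Cacnb3* was not called with 460 and 777 against 408 and 465 counts (-0.52, SE 0.21, adjusted p = 0.0864). *Cacng4*, a gamma subunit that also binds AMPA receptors, had 351 and 613 against 50 and 38 counts (-3.46, SE 0.28, adjusted p = 2.23e-05). *Dpp6* and *Dpp10*, which speed up Kcnd channels, were lower as well, *Dpp6* with 212 and 102 against 4 and 18 counts (-3.95, SE 0.64, adjusted p = 0.00161). The calcium-binding Kcnd partners *Kcnip2* and *Kcnip3* had 12 and 12 against 24 and 27 counts and 27 and 31 against 47 and 39 counts, and neither passed.

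*Scn3b*, a sodium channel beta subunit and adhesion protein, fell from 152 and 190 to 85 and 60 counts (-1.28, SE 0.29, adjusted p = 0.0101). The 16 genes listed as anchoring proteins of the axon initial segment and node also included *Fgf11* to *Fgf14*, *Lgi1* and *Adam22*, which are not anchors in a strict sense. Of the 16, 11 were lower and 1 was higher, with a median log2 fold change of -2.41. *Fgf11*, *Fgf12*, *Fgf13* and *Adam22* were among the lower ones. *Nfasc*, which organizes the initial segment, had 1158 and 1120 against 107 and 120 counts (-3.40, SE 0.23, adjusted p = 1.02e-05), and *Ank3*, the ankyrin that holds sodium and Kcnq channels there, had 2855 and 2442 against 560 and 590 (-2.28, SE 0.24, adjusted p = 0.000113). *Sptbn4*, the spectrin beneath *Ank3*, went the other way, with 34 and 26 against 117 and 118 counts (1.89, SE 0.37, adjusted p = 0.0048).

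*Rest*, the repressor that keeps many neuronal genes silent outside neurons, had 1141 and 1613 counts in wild-type cells against 3133 and 3342 in *Zfp57*-/- replicates (1.20, SE 0.19, adjusted p = 0.00123). Of its 9 listed cofactors, 2 were lower and 0 were higher by edgeR or DESeq2, where *Hdac1* was higher at an unadjusted p under 0.05 by both. The lower ones were *Hdac2*, with 2217 and 3520 against 1792 and 1918 counts (-0.65, SE 0.19, adjusted p = 0.0317), and *Rcor2*, with 1133 and 1448 against 888 and 861 (-0.60, SE 0.18, adjusted p = 0.0355). The part of *Rest* in the levels of the channel genes was not tested.

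**Figure D4:**
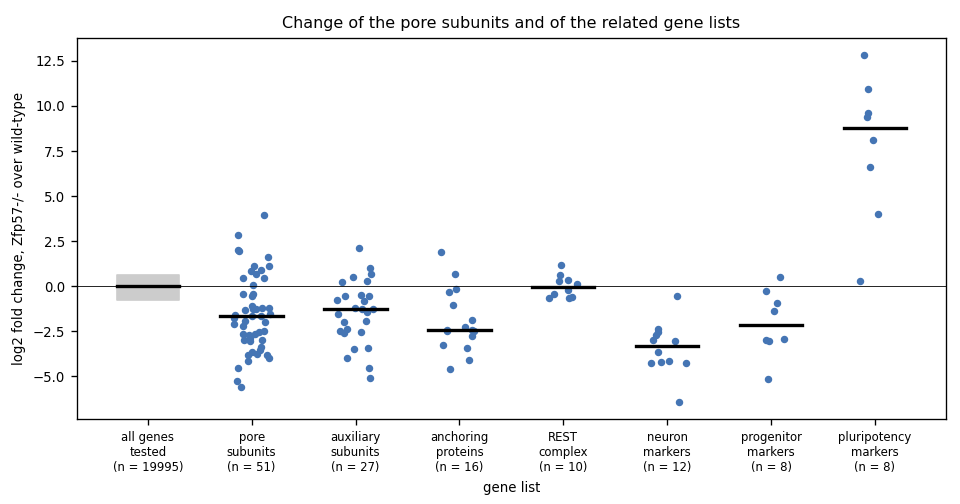
Log2 fold change of *Zfp57*-/- over wild-type cells for the tested genes of each list (points, with their number), with the median as a black line and, for all genes tested, the range from the 25th to the 75th percentile as a grey box. The medians were -1.67 for the pore subunits, -1.28 for the auxiliary subunits, -2.41 for the anchoring proteins, -0.04 for the REST complex and -3.33 for the neuron markers.

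In the hybrid cells, reads over strain differences tell the JF1 allele of the mother from the B6 allele of the father. The share of JF1 reads is 0.5 when both alleles are read equally. Of the 59 members, 27 had enough allelic reads in wild-type for the autosomal test, with 27 to 739 reads over the wild-type replicates, and 15 had at least 10 in every library. Allelic reads were 0 in all libraries for 6 members, among them *Cacna1h* in spite of its high level. As a check of the allele split, the X-linked *Kcnd1* of this male line gave 4 of 4, 7 of 7, 13 of 13 and 9 of 9 reads from the JF1 allele. Over the 27 members the wild-type share ranged from 0.256 to 0.729 with a median of 0.507. Counting intervals given below are Wilson intervals at 95% and cover counting error only.

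In wild-type cells, 3 of the 27 members passed an edgeR adjusted p of 0.05 for a difference between alleles, and 23.6% of all 10977 genes tested did. All 3 had fewer JF1 reads. *Kcng1* had 10 of 32 and 6 of 30 JF1 reads, shares of 0.312 (0.18 to 0.486) and 0.2 (0.0951 to 0.373), with adjusted p = 0.0283. *Kcnd2* had 8 of 31 and 8 of 29 (adjusted p = 0.0435), and *Kcnq3* had 22 of 59 and 23 of 71 (adjusted p = 0.0494). In both replicates of each, the share lay below 0.5. Of these, *Kcng1* was also biased in *Zfp57*-/- cells, with 0 of 10 and 3 of 14 JF1 reads (adjusted p = 0.0127). A count of 0 in 10 reads allows a share of up to 0.278 by the Wilson interval. *Kcnd2* had only 1 of 1 and 3 of 3 JF1 reads in *Zfp57*-/- cells, too few to give a share. These lay on the other side of 0.5, and its genotype difference did not pass (edgeR adjusted p = 0.0604). *Kcnq3* had 11 of 22 and 6 of 13 JF1 reads in *Zfp57*-/- cells. DESeq2 called 0 of the 27 in wild-type, where edgeR called 3, and none of the 27 had an unadjusted p under 0.05 there. Under the replicate block the edgeR wild-type term is the allelic ratio fitted for replicate 1, not the mean of both replicates. All 3 calls were lost there (adjusted p = 0.203 for *Kcng1*, 0.291 for *Kcnd2* and 0.378 for *Kcnq3*), which does not check that mean. They were also lost without wild-type replicate 1 (0.227, 0.550 and 0.326) and without wild-type replicate 2 (0.605, 0.492 and 0.643).

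The allelic share differed between genotypes for 2 of the 27 members, and for 14.5% of all genes tested. *Kcnb2* had 23 of 41 and 31 of 66 JF1 reads in wild-type and 17 of 20 and 16 of 20 in *Zfp57*-/- replicates. Its share rose from 0.515 ± 0.0645 to 0.825 ± 0.0354 (SD, n = 2, edgeR adjusted p = 0.029). The call was lost without wild-type replicate 1 (adjusted p = 0.0902), wild-type replicate 2 (0.385) or *Zfp57*-/- replicate 1 (0.134). *Kcnb2* lies at chr1:15287254-15723750, and the 15 nearest genes that had 10 allelic reads or more in each library, within 2.58 Mb, went from a median share of 0.484 in wild-type to 0.678 in *Zfp57*-/- cells. *Kcnq5*, further along at chr1:21398403-21961942, had neighbours with medians of 0.497 and 0.683. Its own shares were 0.463 and 0.5 in wild-type cells against 0.544 and 0.576 in *Zfp57*-/- replicates (adjusted p = 0.491). The shares of the neighbours moved with that of *Kcnb2*, and their part in it was not tested. *Cacna1s*, also on chromosome 1, had neighbours with medians of 0.474 and 0.661. Its own JF1 reads were 1 of 2 and 4 of 4 against 20 of 35 and 14 of 22, and it was not in the allelic test. On the same chromosome, the neighbours of *Cacna1e* had medians of 0.486 and 0.460, and those of *Kcnh1* 0.469 and 0.5125. The part of the neighbours in the level of *Cacna1s* was not tested.

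*Cacna1b*, on chromosome 2, changed the other way, with 104 of 195 and 89 of 188 JF1 reads in wild-type and 19 of 81 and 21 of 50 in *Zfp57*-/- replicates. Its share was 0.503 ± 0.0424 in wild-type against 0.327 ± 0.131 in *Zfp57*-/- cells (SD, n = 2, edgeR adjusted p = 0.0168), and its neighbours stayed at medians of 0.446 and 0.458. The *Zfp57*-/- replicates differed from each other, with intervals of 0.156 to 0.338 and 0.294 to 0.558, and without replicate 1 of them the difference did not pass (adjusted p = 0.675), nor did it without wild-type replicate 1 (adjusted p = 0.251). DESeq2 called 0 of the 27 members for this contrast, where 2 had an unadjusted p under 0.05 (adjusted p = 0.444 for *Kcnb2* and 0.496 for *Cacna1b*). The 2 members with the most allelic reads in wild-type, *Scn3a* and *Kcnd3*, were read from both alleles there, with shares of 0.545 and 0.57 and of 0.541 and 0.558.

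**Figure D5:**
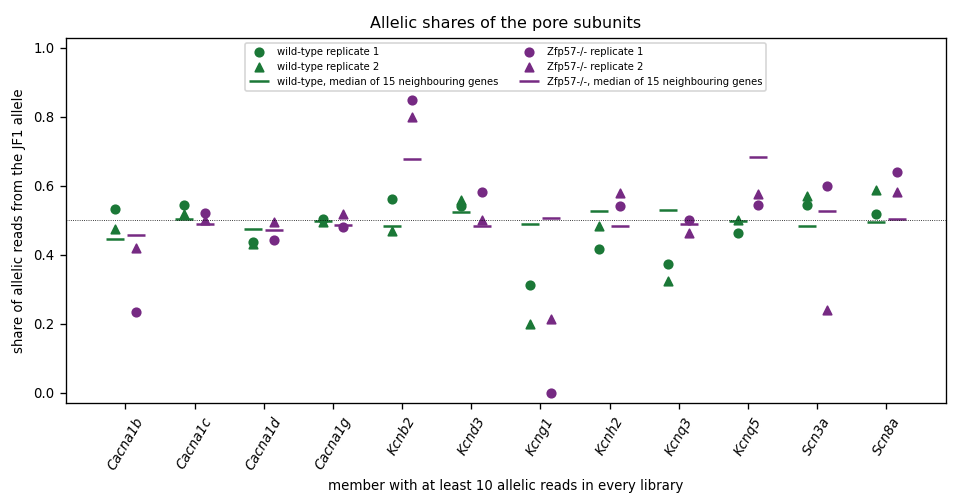
Share of allelic reads from the JF1 allele for 12 of the 15 members that had 10 allelic reads or more in each library, green for wild-type and purple for *Zfp57*-/- cells, circles for replicate 1 and triangles for replicate 2, with short lines for the median of the 15 nearest genes and a dotted line at 0.5. *Kcnb2* lay at 0.85 and 0.8 in *Zfp57*-/- replicates, *Cacna1b* at 0.235 and 0.42, and *Kcng1* lay below 0.5 in all libraries.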

How the data were processed

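The authors deposited RNA-seq count tables of day 12 cells, from 2 wild-type and 2 *Zfp57*-/- libraries. Members and gene lists were chosen with earlier results of these data known. Per the labels and the paper's methods, the authors used Trimmomatic 0.36 for trimming and STAR 2.5.4a for alignment to GRCm38, kept unique alignments and counted fragments per GENCODE vM20 gene by strand with featureCounts (Subread 1.6.0). For the allelic table they masked strain SNPs and split reads with SNPsplit. Both deposited tables hold raw counts without normalization. The 55602 gene IDs matched 54721 symbols.

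The 19995 genes with more than 8 counts over the 4 libraries were compared with edgeR 4.0.16 (R 4.3.3; TMM, robust quasi-likelihood test, Benjamini-Hochberg adjustment over all genes, threshold 0.05). A negative log2 fold change is a lower level in *Zfp57*-/- cells. The 10977 autosomal genes with 10 or more scaled allelic counts in each wild-type replicate were fitted with library terms and, for each genotype, a term for the allele. The bulk test and the genotype-by-allele contrast were run on simulated counts, the latter for genes with more allelic reads than several members had. The wild-type allele test was not simulated. Named were the 12 members of highest mean FPKM, the 10 lower with the smallest adjusted p and all 3 higher (16 genes), those past an allelic test, those at 0 counts and those on the X chromosome. The rest were named after their values were seen, to account for each family. Some members and partners are not reported here. Promoters are those of RefSeq on GRCm38.p6. Depth was 7663520 to 10337082 counts per library, and allelic counts were 36.1% to 37.0% of them. Alternatives were DESeq2 1.42.0 as test and as scaling, upper-quartile and Actb scaling, other filters and thresholds, a gene-length correction, a replicate block and each library left out.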

Additional observations from a re-analysis of the deposited data

Results flagged for a closer look

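The allelic share of 2 members differed between the genotypes by the test of the difference itself. For *Cacna1b* the edgeR adjusted p was 0.0168, with a log2 JF1 to B6 ratio of 0.02 (SE 0.20) in wild-type and -1.16 (SE 0.31) in *Zfp57*-/- cells. For *Kcnb2* it was 0.029, with log2 ratios of 0.05 (SE 0.38) and 2.20 (SE 0.60). The 2 members changed in opposite directions, and neither passed the wild-type allele test. Both calls were lost without wild-type replicate 1 or without *Zfp57*-/- replicate 1, and that of *Kcnb2* also without wild-type replicate 2. With 2 libraries per genotype, no library could be tested for standing apart from its group.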

How the results depend on the processing

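Of the 27 members that were lower, 15 were lower under all 14 alternatives, among them *Scn2a*, *Scn3a*, *Scn8a*, *Scn9a*, *Cacna1b*, *Cacna1g*, *Cacna1h*, *Kcnc1* and *Kcnd3*. The count of lower members was 24 to 31 under other tests, scalings, filters, a gene-length correction and the block, 20 at an adjusted p of 0.01, and 18 to 34 with 1 library left out, where the lone sample is taken to vary like the other genotype. That of lower auxiliary subunits, 12, was 8 to 15 with 1 library left out. Higher members numbered 1 with Actb as the scale and 1 at an adjusted p of 0.01, against 3, and 1 to 5 with 1 library left out. Higher auxiliary subunits numbered 0 with Actb (by edgeR, and 0 at an unadjusted p under 0.05), against 1, and 0 to 2 with 1 library left out. Actb moved the median of all genes to -0.68, and lower genes from 52.8% to 86.0% of those called. With it *Kcns3* was still higher (3.32, edgeR adjusted p = 0.0183). The calls of *Cacna1a* (0.51, adjusted p = 0.609) and *Cacna1s* (2.51, adjusted p = 0.129) were lost. *Kcnq5*, which had not passed in the main fit, changed sign to -0.13 and did not pass either. The counts of Actb itself were 14634 and 37665 in wild-type cells. Without *Zfp57*-/- replicate 2, the lower members fell to 18, and without replicate 1 to 21.

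Members biased in wild-type numbered 0 with DESeq2, 0 at an adjusted p of 0.01 and 0 to 4 with 1 library left out, against 3. Those with a genotype-by-allele difference numbered 0 with DESeq2, 0 at 0.01 and 0 to 2 with 1 library left out, against 2. Leaving out wild-type replicate 1 gave 0 in both counts, and replicate 2 gave 0 and 1. In the wild-type allele test *Cacna1b* was at -0.039 under the replicate block, where the term is the ratio fitted for replicate 1. With 1 library left out *Cacna1b* lay between -0.15 and 0.19 and *Kcnb2* between -0.17 and 0.35, both lowest without wild-type replicate 1. The cause of these changes was not tested, and the allelic calls rest on few reads.

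The libraries share replicate numbers, but no source says that a number marks a pairing, and with 2 pairs same-numbered libraries deviated together with a correlation of 0.134 over 11749 genes. The replicate block gave 6984 genes against 5522, 31 lower and 4 higher members, and 13 lower and 1 higher auxiliary subunits. It gave 2 members with a genotype-by-allele difference. Its wild-type allele term, fitted for replicate 1, gave 0 members (0 at an unadjusted p under 0.05, edgeR).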

Other observations

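Markers of other tissues that use voltage-gated channels were counted in the same fit. Of 8 cardiac markers, 4 were higher in *Zfp57*-/- cells, with summed normalized counts of 641.1 and 469.1 in wild-type cells against 2288 and 2126 in *Zfp57*-/- replicates. Of 5 smooth muscle markers, 4 were higher (529.2 and 1537 against 6725 and 6199). Among the channels that are best known from heart and muscle, *Cacna1s* was higher, *Kcnh2*, *Kcna5* and *Cacna1c* were lower, and *Scn4a* did not pass. Of 6 neural crest markers, 3 were lower and 1 was higher, with sums of 845.0 and 1129 against 146.5 and 177.0. Of 8 glial markers, 2 were lower and 3 were higher, of 6 endothelial markers 1 was lower and 2 were higher, of 8 endoderm markers 1 was higher, and of 5 blood markers 1 was tested and did not pass.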
